A study of Mus musculus with 12 samples.

Results

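The late minus early diet effect asks how the response of mouse liver to a fatty liver diet differed between 6 weeks and 1 week of feeding. For each gene it is the difference between CDAHFD and control livers at 6 weeks minus the same difference at 1 week, on the log2 scale. It rests on the 8 arrays of weeks 6 and 1 among the 12 arrays of the series, and the 4 arrays of week 2 add to the estimate of the spread. All 13898 genes that were measured and named entered the test, and 842 of them were called, that is, had an adjusted p below 0.05 in limma.

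The animals were male C57BL/6NJcl mice with no transgene or deletion. The CDAHFD groups, named NASH in the labels, received a choline-deficient, L-amino acid-defined diet with 60% of its energy as fat and 0.1% methionine for 1, 2 or 6 weeks, and the control groups received the chow CE-2 for the same times. Mice were 7, 8 and 12 weeks old at the 3 times, so the controls aged along with the CDAHFD groups. Each group had 2 one-colour arrays, and the labels do not say whether these are separate mice, so the p-values measure the spread between arrays, which may be technical. CDAHFD and chow also differ in fat, amino acid source and other components, so no single component can be tied to a difference.

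Choline is needed to make phosphatidylcholine, which coats the lipoproteins that carry triglyceride out of hepatocytes, and without it fat is retained in the liver. In such livers monocyte-derived macrophages enter and take up lipid, a state marked by Trem2 and Gpnmb, while resident Kupffer cells, marked by Timd4, Clec4f and Cd163, are partly replaced. Stellate cells lay down collagen, and sinusoidal endothelial cells and hepatocytes lose parts of their specialised gene expression.

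Values are log2 signals relative to the 75th percentile of each array, so negative values mark probes dimmer than that percentile. They compare arrays for 1 gene and not genes with each other. The hepatocyte genes Alb, Apoa1, Ttr, Cps1 and Serpina1a were above background on all 12 arrays. Genes of kidney (Umod, Kap), exocrine pancreas (Prss2, Cpa1), muscle (Ckm, Myh4), adipose tissue (Plin1) and intestine (Lct) were above it on 0 arrays. Other genes of these tissues were above it on some arrays: Slc34a1 of kidney on 1, Acta1 of muscle on 2, and Vil1 of intestine on 4. The adipose genes Adipoq and Retn were above it on 2 arrays and 1 array. The pancreatic gene Cela1 was above background on 10 arrays and the intestinal gene Fabp2 on 12.

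The week 1 controls stood apart from the later controls, and this touches every value of the late minus early effect. Between week 6 and week 1, limma called 2287 genes in control livers (16.5%) and 1041 genes in CDAHFD livers (7.49%). Between week 6 and week 2 it called 0 genes in control livers, where 1164 had an unadjusted p below 0.05. Control replicate 1 of week 1 also carried 12 dim blocks of spots, and the 1435 gene spots in them were left out, so 355 genes rest on 1 control array at week 1. Arrays of weeks 1 and 2 shared 1 slide and those of week 6 were on the other. Slide and week therefore cannot be told apart within a diet, although each diet difference was taken within 1 slide. On the slide of weeks 1 and 2, limma called 1184 genes between these weeks in control livers (8.52%) and 45 in CDAHFD livers (0.324%). There the diet difference changed between weeks 1 and 2 in 237 genes, 88 higher and 149 lower. Between weeks 2 and 6 it changed in 0 genes, where 870 had an unadjusted p below 0.05. With 2 arrays a group, the number of arrays limits the precision of every value.

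The diet difference was called in 6.06% of genes as different between the times, 388 higher (2.79%) and 454 lower (3.27%) at 6 weeks than at 1 week. The counts of called list members below are to be read beside these shares. In 513 genes the diet difference was larger at 6 weeks: CDAHFD was above control by more in 317 and below control by more in 196. Another 269 genes had a smaller diet difference at 6 weeks, of which 222 had been higher and 47 lower in CDAHFD livers at 1 week. The remaining 60 genes had called diet differences of opposite sign at the 2 times. Of the 842 genes, 509 changed at least 2-fold. The median over all tested genes was -0.02. With another background correction, normexp, the median moved to 0.19 and 585 genes were called, 380 higher and 205 lower, so 65.0% rather than 46.1% of the calls were higher. Leaving out 1 array at a time gave between 162 called genes, without control replicate 1 of week 6, and 1071, without CDAHFD replicate 2 of week 6. For reading these counts, the diet difference itself was called in 5821 genes at 6 weeks (41.9%) and 5819 genes at 1 week (41.9%).

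**Figure D1:**
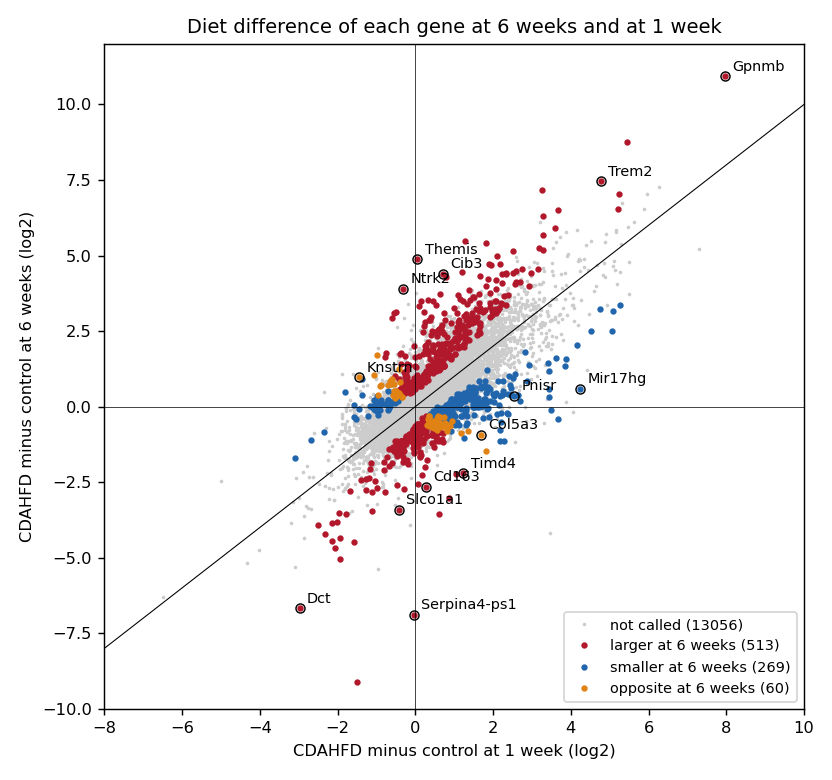
Diet difference of every tested gene at 6 weeks (vertical axis) and at 1 week (horizontal axis), both CDAHFD minus control in log2; the diagonal marks equal differences. Genes above the diagonal had a more positive difference at 6 weeks; 513 called genes had a larger difference at 6 weeks, 269 a smaller one and 60 one of opposite sign.

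A late minus early difference can come from a change over time in CDAHFD livers, in control livers or in both. Among the 842 genes, the change between 6 weeks and 1 week was itself called in CDAHFD livers only for 298 genes and in control livers only for 431. It was called in both diets for 55 genes and in neither for 58. The 298 genes that changed in CDAHFD livers only were mostly larger at 6 weeks (271 of 298). Those that changed in control livers only were mixed, with 152 larger, 237 smaller and 42 opposite.

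**Figure D2:**
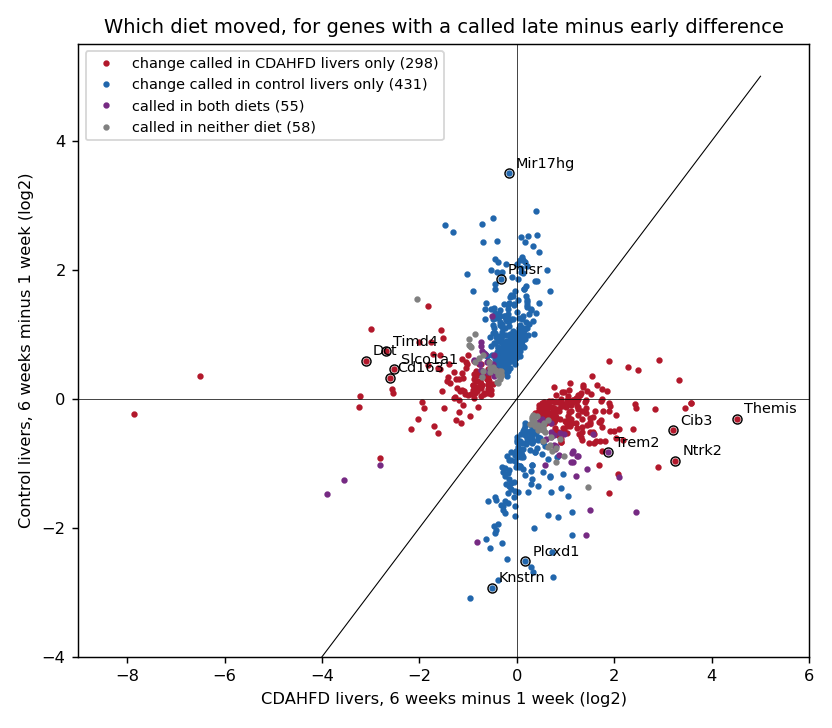
Change between 6 weeks and 1 week in CDAHFD livers (horizontal axis) and in control livers (vertical axis), in log2, for the 842 called genes, coloured by the diet in which that change was itself called; the diagonal marks equal change. Themis, Cib3, Ntrk2, Slco1a1 and Cd163 lie far along the horizontal axis, and Mir17hg, Pnisr, Plcxd1 and Knstrn far along the vertical axis.

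Leaving out control replicate 1 of week 1 gave 376 called genes (2.71%), and 337 of them were among the 842, in the same direction. All 842 genes kept their sign, which the arrays shared by both fits favour. Setting the week 2 controls, which shared the slide of the week 1 arrays, in place of the week 1 controls was an alternative chosen after seeing the data. It left 90 called genes (0.648%), 51 higher and 39 lower, of which 75 were among the 842. Of those 75 genes, 63 had changed in CDAHFD livers only, 10 in both diets and 2 in control livers only. This alternative kept the other arrays of weeks 1 and 6, and in control livers 0 genes were called between weeks 6 and 2. Its calls could therefore hardly come from control livers, so this split gives no separate support. Among all 842, 745 kept their sign, which the shared arrays also favour. Calls also made with the week 2 controls are named as such below and are not independent of the main calls. The week 2 livers add a time in between: the diet difference at 2 weeks lay between those at 1 and 6 weeks in 691 of the 842 genes, and nearer the 6-week one in 642. The 842 genes were called for a gap between those 2 times, which by itself favours a value in between. The share in between was not taken over all genes, so nothing is concluded from the 691. Among all tested genes it was nearer the 6-week one in 8486 of 13898.

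**Figure D3:**
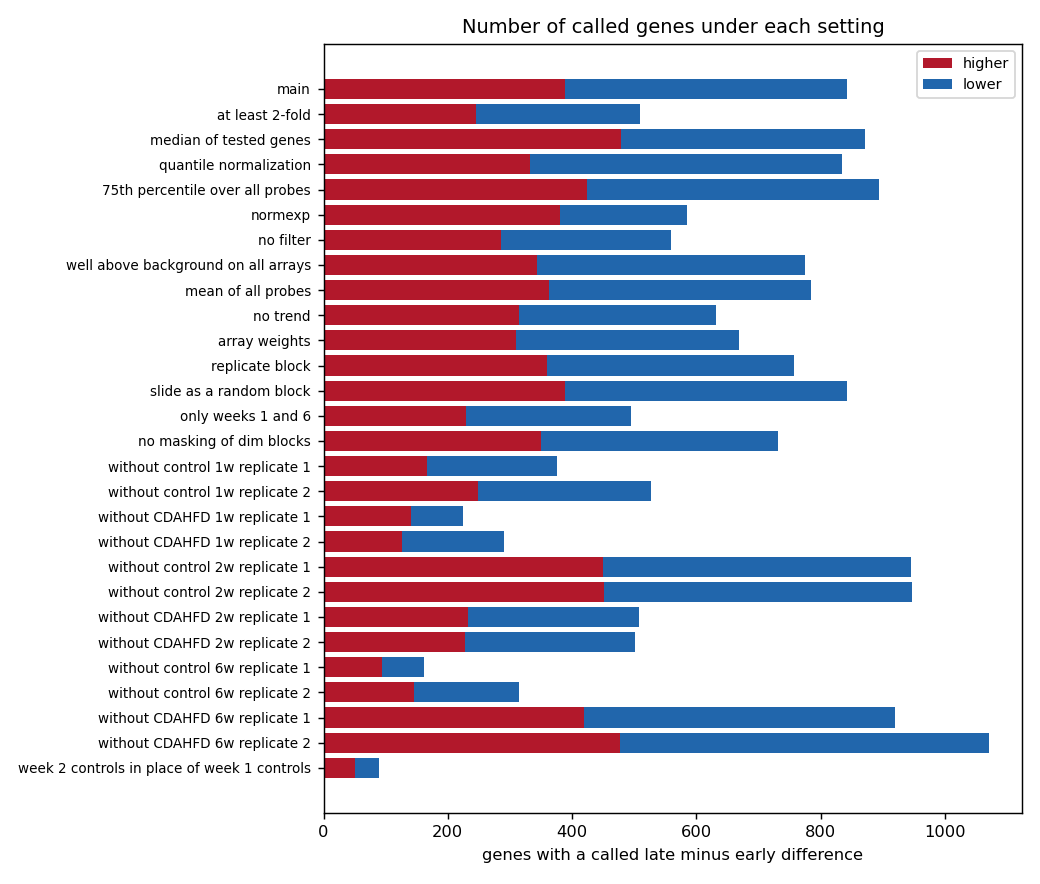
Number of genes with a called late minus early difference (horizontal axis), split into higher and lower at 6 weeks, under the main setting and each alternative (rows). The main bar stands at 842 genes, and the counts run between 90 with the week 2 controls and 1071 without CDAHFD replicate 2 of week 6.

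Markers of lipid-associated macrophages formed the gene list with the highest median over all arrays. Without control replicate 1 of week 1 matrix proteases and inhibitors stood higher (1.18 against 0.98 for lipid-associated macrophage markers), as they did without CDAHFD replicate 1 of week 6 (1.00 against 0.97). All 25 lipid-associated macrophage markers were tested, and 25 had a positive late minus early difference, beside 6730 of all 13898 genes. Of the 25, 11 were called higher and 0 lower, and the median was 1.07 against -0.02 over all genes. These markers were chosen with earlier results of these data known. Their median diet difference was 1.79 at 1 week, 2.66 at 2 weeks and 2.87 at 6 weeks. The median change between 6 weeks and 1 week was 1.07 in CDAHFD livers and -0.15 in control livers. Without control replicate 1 of week 1, 10 were called, and with the week 2 controls 4. More macrophages and more RNA per macrophage cannot be told apart in whole liver.

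Trem2, a lipid-sensing surface receptor of these macrophages, read 2.01 and 1.94 on the CDAHFD arrays at 6 weeks and 0.36 and -0.14 at 1 week. On the control arrays it read -5.17 and -5.80 at 6 weeks and -4.69 and -4.62 at 1 week. The groups did not overlap within either diet: CDAHFD arrays were higher late, while control arrays were lower late, so both diets entered the late minus early difference. The diet difference was 177-fold at 6 weeks and 27.2-fold at 1 week, and the late minus early difference was 2.70 ± 0.29 on the log2 scale (SE, n = 2 arrays a group, limma adjusted p = 0.0032).

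Gpnmb, a membrane glycoprotein of lipid-laden and lysosome-rich macrophages, read 2.12 and 1.67 on the CDAHFD arrays at 6 weeks and -0.52 and -1.34 at 1 week. It was not well above background on any control array. CDAHFD livers were therefore at least 406-fold above control livers at 6 weeks and at least 52.0-fold above them at 1 week, each fold being taken against the dimmest signal counted as above background. Between 6 weeks and 1 week Gpnmb rose 7.10-fold within CDAHFD livers. Its late minus early difference had a limma adjusted p of 0.0071, and its size is not given because it takes in control readings not well above background. Syngr1, a vesicle membrane protein, read -2.62 and -3.18 on the CDAHFD arrays at 6 weeks and -5.27 and -5.41 at 1 week. It was at least 14.7-fold above control livers at 6 weeks, where controls were not well above background. Trem2, Gpnmb, Syngr1 and the protease Ctsd were the 4 markers also called with the week 2 controls.

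Lpl, the enzyme that frees fatty acids from circulating lipoproteins, stood at 2.13 and 1.78 on CDAHFD arrays at 6 weeks and at 0.63 and 0.27 at 1 week, against -1.32 and -0.96 on control arrays at 6 weeks and -0.47 and -0.76 at 1 week. All CDAHFD arrays were above all control arrays, by 8.53-fold at 6 weeks and 2.09-fold at 1 week (late minus early 2.03 ± 0.28, limma adjusted p = 0.0067). Spp1, which encodes the matrix cytokine osteopontin and is made by these macrophages and by bile duct cells, was 7.03-fold above control at 6 weeks and 2.12-fold at 1 week (1.73 ± 0.34, limma adjusted p = 0.021). The call for Spp1 held in 8 of the 12 fits that each left out 1 array. Among such fits, here and below, 4 left out a week 2 array, which bears only on the estimate of the spread. The calls lost for Spp1, and below for Dcn, Tek, Cdkn1a, Alb and Serpina4-ps1, were all lost without arrays of weeks 1 or 6. The other called markers were Cd63, Cd68, Ms4a7, Emp1 and Fabp5. Fabp5 is taken up below because its early difference had the opposite sign.

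Monocyte and inflammatory macrophage markers had 3 of 26 tested members called higher and 0 lower, with a median of 0.57. One was Cx3cr1, the fractalkine receptor of monocytes, which was at least 36.1-fold above control at 6 weeks, where it was not well above background on the control arrays. At 1 week it was 9.72-fold above control. The other 2 probes of Cx3cr1 gave late minus early differences of 0.44 and 1.48 (limma adjusted p = 0.651 and 0.117). Its change over time was called in control livers only, where it read -6.45 and -6.67 at 6 weeks and -5.25 and -5.45 at 1 week. The others were Fcer1g and Cyba, which encode an immune receptor signalling chain and a subunit of the phagocyte oxidase.

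Of the lysosomal enzymes and proton pump subunits, 7 of 36 were called higher and 0 lower, with a median of 0.46. Without control replicate 1 of week 1, 2 were called. Besides Ctsd and Ctsk, which encode cathepsin proteases, these included Hexa, Gla and Gusb, which break down glycolipids and glycans, and Psap, the precursor of lysosomal activator proteins. Ctsd read 4.15 and 4.16 on CDAHFD arrays at 6 weeks and 3.33 and 3.28 at 1 week, against 2.73 and 2.77 on control arrays at 6 weeks and 2.78 and 2.83 at 1 week. Only the late CDAHFD arrays stood apart from their earlier counterparts, and the difference of 0.90 ± 0.14 (limma adjusted p = 0.0088) was also called without control replicate 1 of week 1. Of the 7, 2 were called with the week 2 controls. The lipid-associated macrophage markers rose on the same CDAHFD arrays, and their part in the lysosomal values was not tested.

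Among resident Kupffer cell markers 0 of 20 were called higher and 2 lower, beside 3.27% of all genes called lower, and the median was -0.06. That median was -0.47 without control replicate 1 of week 1 and 0.30 without replicate 2, and its sign turned under 5 of 26 alternatives. The 2 were Timd4, a receptor for dying cells, and Cd163, the haemoglobin scavenger receptor. Timd4 read -5.80 and -6.82 on CDAHFD arrays at 6 weeks and -4.02 and -3.22 at 1 week. On control arrays it read -4.29 and -3.94 at 6 weeks and -4.85 at 1 week, where replicate 1 was left out and the value rests on 1 array.

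The late CDAHFD values of Timd4 lay below all others. Its diet difference was 4.58-fold lower in CDAHFD livers at 6 weeks, and within CDAHFD livers Timd4 fell 6.47-fold between 6 weeks and 1 week (late minus early -3.43 ± 0.68, limma adjusted p = 0.024). The call was also made with the week 2 controls and in 8 of 11 fits without 1 array. For Cd163 the 6-week CDAHFD arrays and the 1-week control arrays were not well above background, and 1 of the 2 control arrays of week 6 was, so no fold is given. The call for Cd163 had an adjusted p of 0.01 in limma and was made again in each of the 12 fits without 1 array, but with another background correction its sign turned (0.18). Clec4f, a lectin found on Kupffer cells, read 1.32 and 1.21 on CDAHFD arrays at 6 weeks and 1.39 and 1.80 at 1 week, against 1.10 and 1.13 on control arrays at 6 weeks and 1.48 and 0.78 at 1 week. These ranges overlapped, and Clec4f was not called (-0.32 ± 0.34, limma adjusted p = 0.60).

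Matrix proteases and their inhibitors had 8 of 21 tested members called higher and 0 lower, with a median of 0.98. Without control replicate 1 of week 1, 3 members of this list of matrix proteases and inhibitors were called, and 2 without CDAHFD replicate 2 of week 1 or without control replicate 1 of week 6. Timp2, an inhibitor of matrix metalloproteinases, read 1.64 and 1.58 on CDAHFD arrays at 6 weeks and 0.58 and 0.39 at 1 week, against -0.56 and -0.39 on control arrays at 6 weeks and -0.28 and 0.07 at 1 week. The late CDAHFD arrays were the highest of the 8, with a diet difference of 4.24-fold at 6 weeks and 1.50-fold at 1 week (1.50 ± 0.18, limma adjusted p = 0.0034). Mmp2, the gelatinase of stellate cells, read -3.03 and -3.28 on CDAHFD arrays at 6 weeks and -4.18 and -4.56 at 1 week, against no signal well above background on control arrays at 6 weeks and -5.97 and -5.08 at 1 week (limma adjusted p of the late minus early difference 0.015). Mmp7, or matrilysin, was at least 8.67-fold above control at 6 weeks, and at 1 week it was above background on 1 of 2 CDAHFD arrays. Mmp23, Adam8, Ctsk, Plat and Adamts2 completed the 8. Timp2, Adam8 and Ctsk were the 3 called with the week 2 controls.

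Matrix glycoproteins and crosslinking enzymes had 5 of 28 called higher and 0 lower, with a median of 0.82. Dcn, which encodes the collagen-binding proteoglycan decorin, read 4.43 and 4.55 on CDAHFD arrays at 6 weeks and 3.62 and 3.51 at 1 week, against 3.01 and 3.04 on control arrays at 6 weeks and 2.78 and 3.07 at 1 week. It rose 1.90-fold in CDAHFD livers and its late minus early difference of 0.83 ± 0.16 (limma adjusted p = 0.021) was also called with the week 2 controls and in 7 of the 12 fits without 1 array. Sparc, a matrix protein that binds collagen, behaved otherwise: it read 3.82 and 3.82 on CDAHFD arrays at 6 weeks and 3.96 and 3.90 at 1 week, against 2.56 and 2.52 on control arrays at 6 weeks and 3.49 and 3.50 at 1 week. Its control values were lower late and its CDAHFD values were close at both times (0.84 ± 0.14, limma adjusted p = 0.011). The other 2 probes of Sparc gave 0.75 and 0.43 (limma adjusted p = 0.178 and 0.568). The crosslinking enzymes Loxl1 and Loxl2 were called in 4 and 3 of the 12 fits without 1 array. The elastic fibre protein Fbln5, the remaining call, has a week 1 control value from 1 array.

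Collagens had a high diet difference at every time, with a median of 1.58 at 1 week, 1.90 at 2 weeks and 2.04 at 6 weeks. Of 16 tested, 4 were called higher (Col1a1, Col1a2, Col4a2 and Col6a1) and 2 lower (Col5a3 and Col27a1), with a median late minus early difference of 0.57. Col1a1, a chain of type I collagen, read 0.36 and 0.52 on CDAHFD arrays at 6 weeks and 0.64 and 0.34 at 1 week, so the CDAHFD values overlapped. The control values did not: Col1a1 read -3.82 and -3.40 at 6 weeks and -2.48 and -1.69 at 1 week. The diet difference was 16.6-fold at 6 weeks and 5.96-fold at 1 week (1.48 ± 0.34, limma adjusted p = 0.035), with the change called in control livers only, and it was called in 4 of the 12 fits without 1 array. With the week 2 controls the difference for Col1a1 was 0.34 and 0 collagens were called, where 90 genes were called in all. Stellate cell and myofibroblast markers had 1 of 24 called higher, Tgfbi, and 0 lower. The call for Tgfbi was lost in most fits without 1 array and with the week 2 controls.

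**Figure D4:**
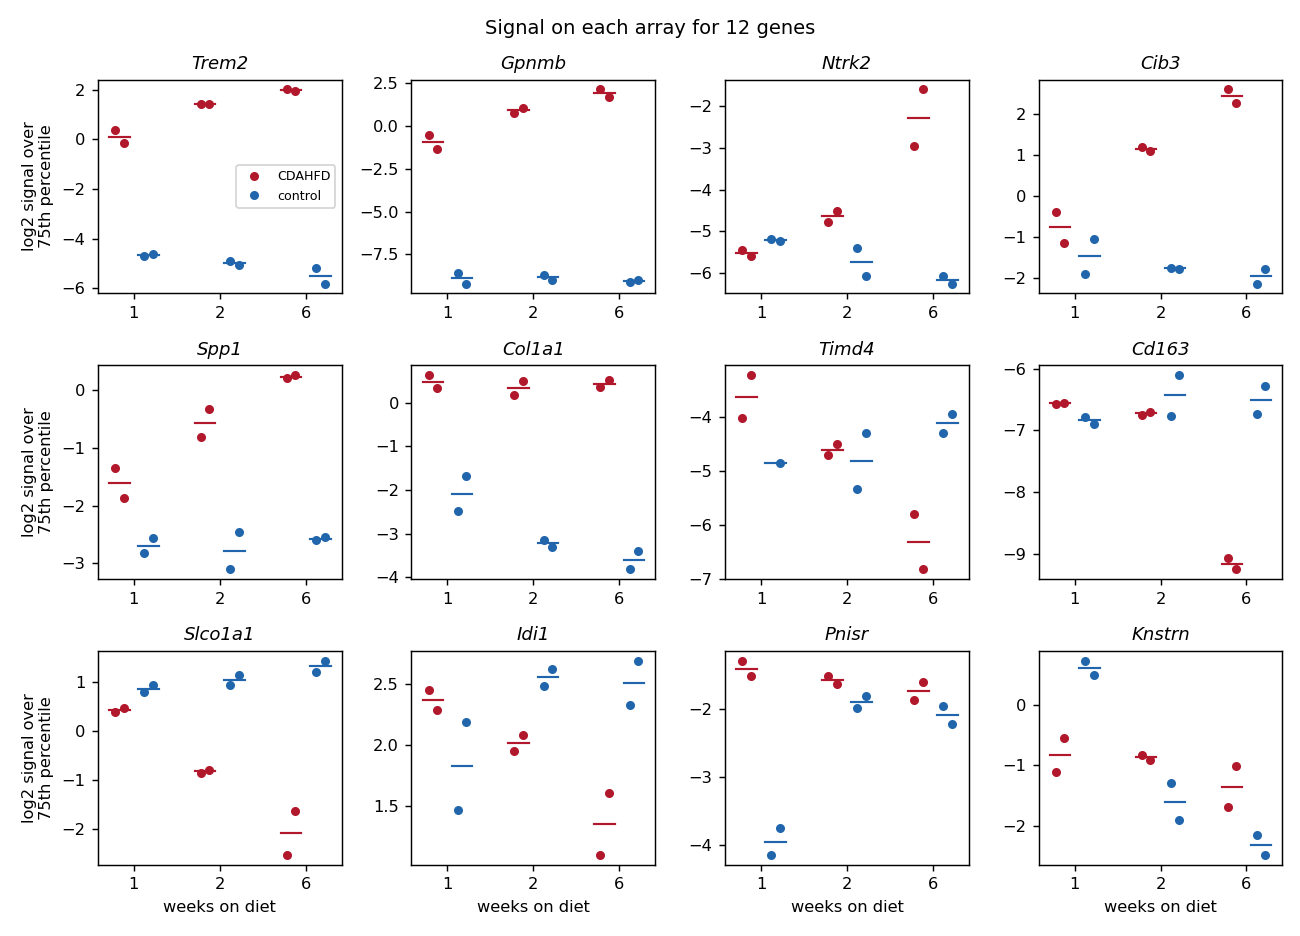
Log2 signal over the 75th percentile on each array (points) and the mean of each group (bars) for 12 genes, CDAHFD left of control at 1, 2 and 6 weeks on diet. Trem2, Gpnmb, Ntrk2, Cib3 and Spp1 were highest on the CDAHFD arrays of week 6, Timd4, Cd163, Slco1a1 and Idi1 had their lowest mean there, and for Col1a1, Pnisr and Knstrn the week 1 controls differed from the later controls.

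Cholesterol synthesis and sterol uptake genes had the lowest median of the 43 lists, -0.93. Of 25 tested, 23 had a negative late minus early difference, beside 7168 of all 13898 genes, and 2 were called lower and 0 higher. This list too was chosen with earlier results of these data known. For cholesterol synthesis and sterol uptake the number called lower was 0 without CDAHFD replicate 1 of week 1, 5 without control replicate 2 of week 1, and 7 without CDAHFD replicate 2 of week 6 or with the replicate block. The median diet difference was -0.08 at 1 week, -0.32 at 2 weeks and -1.03 at 6 weeks, and the change between 6 weeks and 1 week had a median of -0.69 in CDAHFD livers and 0.21 in control livers. The list median stayed negative under all 26 alternatives, between -1.28 and -0.59. With the week 2 controls 0 members were called and the median was -0.86.

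The 2 called genes were Idi1, an enzyme of isoprenoid synthesis, and Stard4, a carrier of cholesterol between membranes. Idi1 read 1.10 and 1.61 on CDAHFD arrays at 6 weeks and 2.45 and 2.28 at 1 week, against 2.32 and 2.69 on control arrays at 6 weeks and 1.47 and 2.19 at 1 week. The late CDAHFD arrays were below the early ones, and the week 1 controls ranged widely. Idi1 was 2.22-fold lower in CDAHFD livers at 6 weeks, and within CDAHFD livers it fell 2.02-fold (late minus early -1.69 ± 0.33, limma adjusted p = 0.021), a call made in 9 of the 12 fits without 1 array. Stard4 read -1.25 and -0.44 on CDAHFD arrays at 6 weeks and 0.60 and 0.57 at 1 week, against 0.88 and 1.21 on control arrays at 6 weeks and 0.72 and 0.81 at 1 week. It was 3.70-fold lower at 6 weeks and 1.13-fold lower at 1 week (-1.71 ± 0.30, limma adjusted p = 0.014). Its other probe gave -1.14 (limma adjusted p = 0.128).

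Other enzymes of the pathway did not pass the test. Sqle, the epoxidase that commits to sterols, had a late minus early difference of -1.02 ± 0.68 (limma adjusted p = 0.40). Hmgcs1, an early enzyme of the mevalonate pathway, read 2.45 and 3.19 on CDAHFD arrays at 6 weeks and 3.71 and 3.57 at 1 week, against 3.62 and 3.88 on control arrays at 6 weeks and 2.84 and 3.85 at 1 week. Its 2 week 1 controls were far apart, and it was not called (-1.23 ± 0.44, limma adjusted p = 0.13).

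These genes are known targets of the SREBP factors, which bind sterol regulatory elements, so the promoters were searched for the letters TCACNCCAC on both strands. Windows ran 250 bases before to 50 bases after each gene start in RefSeq sequence of GRCm38.p6, and 17 of the 25 genes had at least 1 window. The letters were found in 1 of 20 windows (5.0%), against 408 of 32851 windows of all genes (1.24%). That window is of Hmgcs1, shown as the single match of the list, at chr13:119690184-119690252 on the plus strand. The match, in capitals, begins at -137 relative to the gene start:
Hmgcs1: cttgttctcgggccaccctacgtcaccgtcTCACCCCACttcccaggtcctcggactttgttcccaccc
A match describes the letters only, and a window without one says nothing of binding by the factor.

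Fatty acid synthesis, desaturase and elongase genes had a median of -0.28, with 1 of 21 called lower, Mlxipl, which encodes the carbohydrate-responsive transcription factor ChREBP. Its other probe gave -0.059 (limma adjusted p = 0.898). Triglyceride synthesis and lipid droplet genes had 0 of 25 called and a median of 0.33, and fatty acid oxidation and ketogenesis genes 0 of 30 and a median of 0.09. The median of the fatty acid oxidation and ketogenesis list was -0.41, with 3 called lower, without CDAHFD replicate 1 of week 6, and 0.44, with 7 called higher, without replicate 2.

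Sinusoidal endothelial markers had 6 of 29 tested members called lower and 0 higher, a median of -0.44. Their median diet difference was 0.13 at 1 week, 0.01 at 2 weeks and -0.38 at 6 weeks. The 6 were Oit3, a secreted protein of these cells, Dnase1l3, a secreted nuclease, Fcgr2b, an inhibitory antibody receptor, Kdr and Tek, the receptors of vascular endothelial growth factor and the angiopoietins, and Emcn, a surface sialomucin.

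Oit3 read -2.05 and -1.88 on CDAHFD arrays at 6 weeks and -0.73 and -0.66 at 1 week, against -0.61 and -0.60 on control arrays at 6 weeks and -0.73 and -0.54 at 1 week. Only the late CDAHFD arrays stood apart. They were 2.56-fold below control livers at 6 weeks (late minus early -1.30 ± 0.23, limma adjusted p = 0.013), and the call was also made with the week 2 controls but lost without control replicate 1 of week 6. Tek read -6.75 and -6.48 on CDAHFD arrays at 6 weeks and -5.15 and -5.24 at 1 week, against -5.09 and -4.92 on control arrays at 6 weeks and -5.21 and -5.47 at 1 week. It was 3.05-fold lower in CDAHFD livers at 6 weeks and 1.10-fold higher at 1 week (-1.75 ± 0.36, limma adjusted p = 0.023), called in 7 of the 12 fits without 1 array. Stab2, the hyaluronan receptor of the same cells, read 1.08 and 1.04 on CDAHFD arrays at 6 weeks and 1.39 and 1.59 at 1 week, and was not called (-0.41 ± 0.18, limma adjusted p = 0.19). Without control replicate 1 of week 1, 2 of the 6 were called. Here too fewer cells and less RNA per cell cannot be told apart.

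Genes that depend on growth hormone pulses and differ between male and female livers had 5 of 28 tested members called lower and 1 higher, with a median of -0.37. Slco1a1, a male-biased bile acid and steroid uptake carrier, read -2.54 and -1.63 on CDAHFD arrays at 6 weeks, -0.86 and -0.80 at 2 weeks and 0.40 and 0.48 at 1 week. On control arrays it read 1.21 and 1.43 at 6 weeks, 0.94 and 1.14 at 2 weeks and 0.79 and 0.94 at 1 week. The CDAHFD groups did not overlap and were lower at each later time. Slco1a1 was 10.6-fold lower in CDAHFD livers at 6 weeks and 1.34-fold lower at 1 week (-2.98 ± 0.33, limma adjusted p = 0.0033). This call was made again under each fit without 1 array and with the week 2 controls.

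Hsd3b5, a male-biased steroid dehydrogenase, had widely spread late values: it read -7.43 and -3.33 on CDAHFD arrays at 6 weeks and 2.32 and 2.65 at 1 week, against 3.63 and 3.87 on control arrays at 6 weeks and 4.15 and 3.82 at 1 week. The lower of the late arrays was not well above background. The late minus early difference was -7.62 ± 1.62 (limma adjusted p = 0.045), called in 3 of the 12 fits without 1 array. Cyp7b1, an oxysterol hydroxylase of bile acid synthesis, was 11.6-fold lower at 6 weeks and 3.43-fold lower at 1 week (-1.76 ± 0.43, limma adjusted p = 0.045), a call made in 2 of those 12 fits. Ghr, the growth hormone receptor, and Egfr, the epidermal growth factor receptor, were the other 2 lower calls. The gene called higher, the female-biased Cyp2b9, was at least 7.68-fold above control at 6 weeks and at least 1.65-fold at 1 week, with control arrays not well above background.

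Bile acid genes had 4 of 26 tested members called lower and 1 higher, with a median of -0.34. Beside Cyp7b1 and Slco1a1, the lower calls were Nr1h4, the bile acid receptor FXR, and Slco1b2, an uptake carrier whose week 1 control value rests on 1 array. Nr1h4 read 2.13 and 1.89 on CDAHFD arrays at 6 weeks and 2.25 and 2.21 at 1 week, against 2.70 and 2.61 on control arrays at 6 weeks and 1.81 and 1.97 at 1 week. CDAHFD livers were 1.57-fold lower at 6 weeks and 1.27-fold higher at 1 week, and the change over time was called in control livers only (-0.99 ± 0.16, limma adjusted p = 0.011). Slc51b, part of the basolateral bile acid exporter, was called higher. It was at least 5.59-fold above control at 6 weeks and 1.74-fold above it at 1 week, and its change over time was also called in control livers only.

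Drug-handling genes had low medians at both times: the median diet difference of P450 genes was -1.28 at 6 weeks and -1.07 at 1 week, and that of conjugating enzymes was -0.74 at 6 weeks and -0.68 at 1 week. P450 genes had 3 of 31 called higher and 2 lower, a median of -0.04. Cyp3a11, the main mouse CYP3A enzyme, read 4.26 and 3.88 on CDAHFD arrays at 6 weeks and 3.04 and 3.17 at 1 week, against 5.01 and 4.80 on control arrays at 6 weeks and 5.51 and 5.40 at 1 week. The diets were closer late: 1.78-fold lower in CDAHFD livers at 6 weeks and 5.10-fold lower at 1 week (1.52 ± 0.24, limma adjusted p = 0.0094). The other probe of Cyp3a11 gave 0.91 (limma adjusted p = 0.077). Cyp1a2, which oxidises caffeine, moved the other way and was 1.90-fold lower at 6 weeks (-0.99 ± 0.25, limma adjusted p = 0.042), a call made in 2 of the 12 fits without 1 array. Conjugating enzymes had 5 of 34 called lower, 4 of them the glucuronosyltransferases Ugt2b1, Ugt2b5, Ugt2b35 and Ugt2b36, and 1 higher, Gsta4. Ugt2b probes can share sequence with near-identical copies, so these 4 may not be independent.

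**Figure D5:**
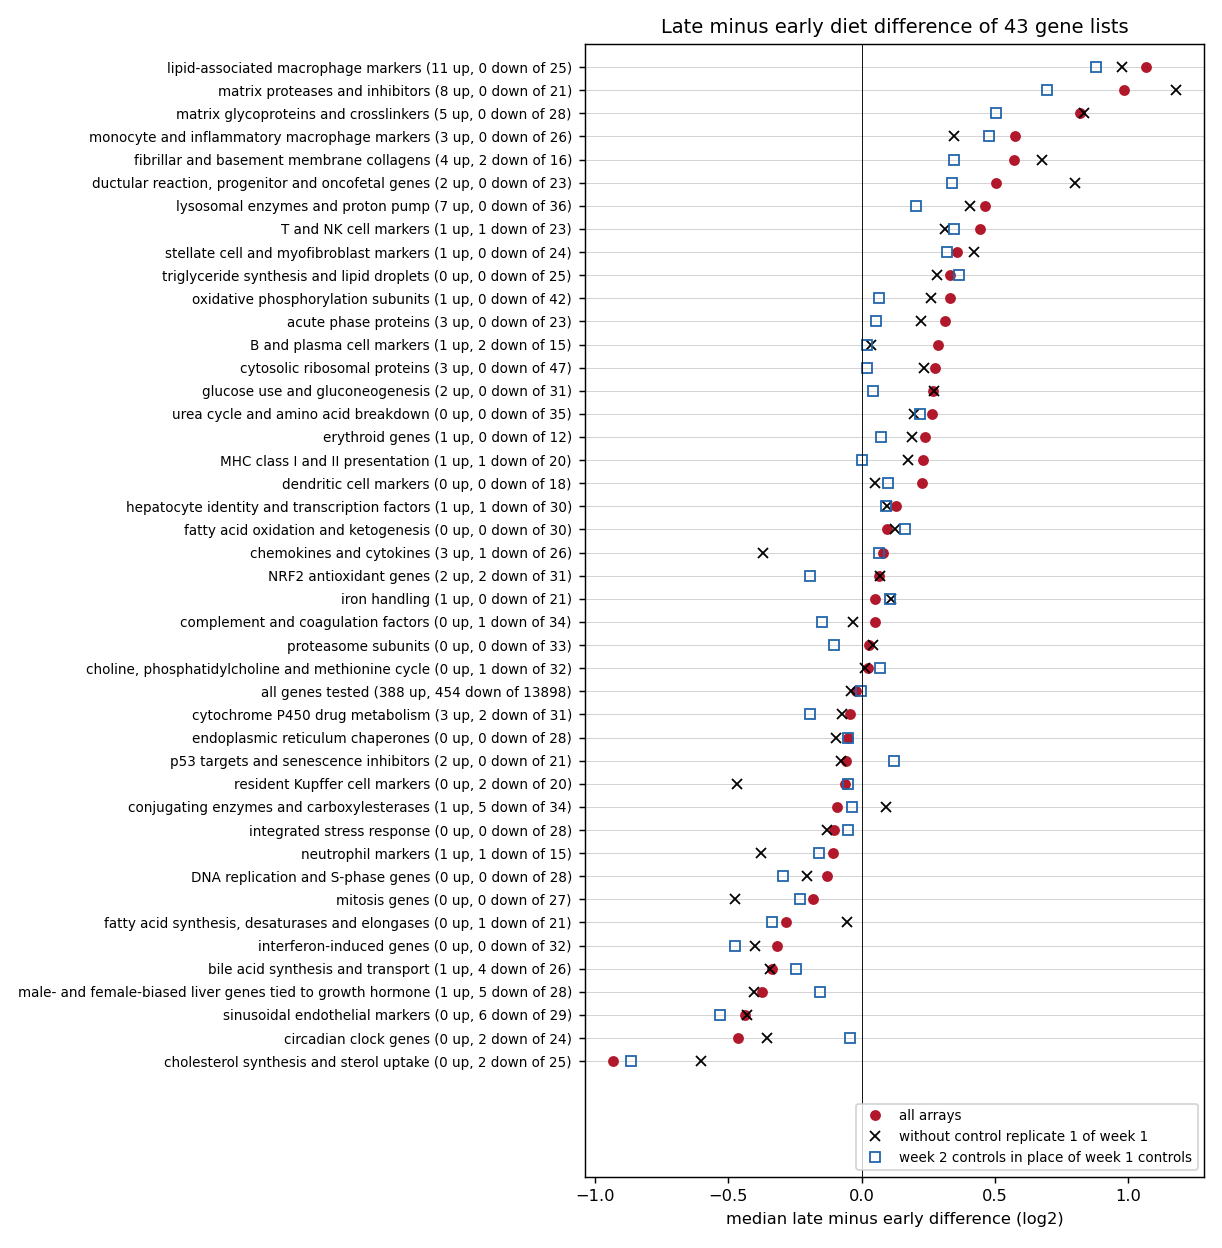
Median late minus early difference (log2, horizontal axis) of the tested members of each of 43 gene lists and of all genes (rows, with the numbers called higher and lower), for all arrays, without control replicate 1 of week 1, and with the week 2 controls in place of the week 1 controls. Over all arrays lipid-associated macrophage markers stand highest at 1.07, whereas without control replicate 1 of week 1 matrix proteases and inhibitors do, at 1.18. Cholesterol genes stand lowest at -0.93 over all arrays, against -0.02 for all genes.

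Beyond the lists, the genes with the largest called rise and signal in all groups began with Ntrk2, the receptor of brain-derived neurotrophic factor. It read -2.94 and -1.59 on CDAHFD arrays at 6 weeks, -4.78 and -4.50 at 2 weeks and -5.44 and -5.60 at 1 week, against -6.08 and -6.25 on control arrays at 6 weeks, -5.40 and -6.06 at 2 weeks and -5.19 and -5.23 at 1 week. CDAHFD livers were 14.9-fold above control at 6 weeks and 1.24-fold below it at 1 week, a difference that was not called (limma adjusted p = 0.53). The late minus early difference of Ntrk2 was 4.21 ± 0.53 (limma adjusted p = 0.0046).

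Cib3, a calcium- and integrin-binding protein, read 2.59 and 2.25 on CDAHFD arrays at 6 weeks and -0.40 and -1.15 at 1 week, against -2.15 and -1.80 on control arrays at 6 weeks and -1.91 and -1.06 at 1 week. It was 21.0-fold above control at 6 weeks and 1.63-fold at 1 week (3.68 ± 0.41, limma adjusted p = 0.0033). Sult1e1, the oestrogen sulfotransferase, was 60.2-fold above control at 6 weeks and 12.1-fold at 1 week, with 1 of the 2 week 1 control arrays well above background. Fndc10 was 12.8-fold above control at 6 weeks and 2.14-fold at 1 week. Cdkn1a, the cell cycle inhibitor p21, was 26.5-fold above control at 6 weeks and 3.73-fold at 1 week, called in 7 of the 12 fits without 1 array. The others were H2-Q1, a class Ib histocompatibility antigen, Gpx3, the secreted glutathione peroxidase, Slc13a5, the citrate carrier, the phosphatase Dusp14, Nme5, Plcd3, Plcxd1 and Knstrn. Ntrk2, Cib3, Sult1e1, Fndc10 and H2-Q1 were also called with the week 2 controls.

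Several genes were well above background in CDAHFD livers at both times while no control array of weeks 1, 2 or 6 was. Vsig8, an immunoglobulin-domain protein, was at least 93.5-fold above control at 6 weeks and at least 19.9-fold at 1 week. Scube1, a secreted and surface protein with epidermal growth factor repeats, was at least 8.94-fold above control at 6 weeks and at least 2.00-fold at 1 week. Gipc2 and the dipeptidase Dpep2 had the same pattern.

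A further 7 called genes were well above background in 1 of the 4 groups of weeks 6 and 1 alone, the CDAHFD livers of week 6. These were Themis, Npy, Meltf, Gldn, Prss46, Scn10a and Tlr8. Among these 4 groups they passed the background filter only through the group in which they were high. Their adjusted p takes in readings not well above background in the other groups, so it adds no separate support. The calls for Tlr8, Gldn, Prss46 and Scn10a were lost in most fits without 1 array. Themis, a signalling protein of developing and mature T cells, read -3.90 and -4.05 on CDAHFD arrays at 6 weeks and -5.14 and -5.02 at 2 weeks. It was at least 11.1-fold above the CDAHFD livers of week 1 and at least 6.96-fold above the controls of week 6 (limma adjusted p of the late minus early difference 0.0033). T and NK cell markers as a list had 1 of 23 called higher, Cd3e, and 1 lower, Klrd1. The call for Cd3e was lost in most fits without 1 array, and with the week 2 controls 0 of these markers were called. Npy, or neuropeptide Y, was at least 1.94-fold above the controls of week 6 and at least 3.10-fold above the CDAHFD livers of week 1. H19, a fetal long noncoding RNA of the ductular and oncofetal list, was at least 74.4-fold above control at 6 weeks and 9.50-fold at 1 week, where 1 of the 2 control arrays was well above background (limma adjusted p of the late minus early difference 0.012).

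Among the largest called falls, Dct, or dopachrome tautomerase, a melanin synthesis enzyme, read -5.18 and -5.71 on CDAHFD arrays at 6 weeks and -2.31 and -2.37 at 1 week, against 1.11 and 1.34 on control arrays at 6 weeks and 0.95 and 0.32 at 1 week. It was 102-fold lower in CDAHFD livers at 6 weeks and 7.86-fold lower at 1 week (-3.69 ± 0.54, limma adjusted p = 0.0094). Serpina4-ps1, a serpin pseudogene, was 118-fold lower at 6 weeks and 1.03-fold lower at 1 week (-6.85 ± 1.15, limma adjusted p = 0.024), called in 8 of the 12 fits without 1 array. Its probe could share signal with related serpin genes. Tiam2, an exchange factor for Rac, was 22.2-fold lower at 6 weeks and 2.98-fold lower at 1 week, called in 3 of the 12 fits without 1 array. Cadm4, a cell adhesion molecule, was 7.12-fold lower at 6 weeks and 1.72-fold lower at 1 week. In these 4 genes the change over time was called in CDAHFD livers only, and Dct and Cadm4 were also called with the week 2 controls.

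The other 9 named falls had their change over time called in control livers only. Mir17hg, the host transcript of a microRNA cluster, read -2.73 and -2.93 on CDAHFD arrays at 6 weeks and -2.52 and -2.81 at 1 week, against -3.10 and -3.74 on control arrays at 6 weeks, -2.40 and -3.21 at 2 weeks and -7.19 and -6.64 at 1 week. The week 1 controls alone were low. The late minus early difference was -3.66 ± 0.42 (limma adjusted p = 0.0033), and with the week 2 controls it was 0.45. Pnisr, a splicing-associated protein, read -1.87 and -1.60 on CDAHFD arrays at 6 weeks and -1.29 and -1.51 at 1 week, against -1.96 and -2.22 on control arrays at 6 weeks, -1.98 and -1.81 at 2 weeks and -4.14 and -3.75 at 1 week. Again only the week 1 controls stood apart, and the difference was -2.19 ± 0.24 with them (limma adjusted p = 0.0033) and -0.13 with the week 2 controls. Pisd-ps3, Sox17, Adrb3, Aatk, Cyp21a1, Ttc6 and Col5a3 made up the rest.

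Alb, which encodes albumin, moved the other way on the same arrays. It read 5.25 and 5.05 on CDAHFD arrays at 6 weeks and 5.09 and 5.46 at 1 week, against 5.17 and 5.11 on control arrays at 6 weeks, 5.33 and 5.29 at 2 weeks and 6.72 and 6.17 at 1 week. CDAHFD livers were 1.01-fold above control at 6 weeks and 2.24-fold below it at 1 week (1.18 ± 0.25, limma adjusted p = 0.025), with the change called in control livers only and the late minus early call made in 8 of the 12 fits without 1 array. Cytosolic ribosomal protein genes had 3 of 47 called higher (Rps3, Rps19 and Rps24), each with the change called in control livers only, and a median of 0.28 that was 0.02 with the week 2 controls. Circadian clock genes had 2 of 24 called lower, Per3 and Nr1d2, both with the change called in control livers only. Their median was -0.46, and -0.04 with the week 2 controls. The labels used here give no time of day of sampling.

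Opposite diet differences at the 2 times were called in 60 genes, and the 8 named are Fabp5, Plcxd1, Knstrn, Hccs and Utp6, higher in CDAHFD livers late and lower early, and Col5a3, Ttc6 and Eif2s3x, lower late and higher early. Fabp5, the fatty acid carrier of the lipid-associated macrophage list, read 3.11 and 2.81 on CDAHFD arrays at 6 weeks and 2.23 and 1.81 at 1 week, against 1.50 and 2.34 on control arrays at 6 weeks and 3.32 and 2.86 at 1 week. CDAHFD was above control late and below it early, with no overlap at either time: 2.06-fold higher at 6 weeks and 2.10-fold lower at 1 week (2.11 ± 0.36, limma adjusted p = 0.014). Knstrn, a spindle protein, was 1.96-fold higher in CDAHFD livers at 6 weeks and 2.72-fold lower at 1 week (2.41 ± 0.39, limma adjusted p = 0.011), and its other probe gave -0.083 (limma adjusted p = 0.945). Col5a3, a chain of type V collagen, was 1.90-fold lower at 6 weeks and 3.22-fold higher at 1 week (-2.61 ± 0.43, limma adjusted p = 0.012). The change over time was called in control livers only for 7 of these 8. For Eif2s3x, a translation initiation factor subunit, it was called in both diets, and its other probe gave a late minus early difference of -0.22 (limma adjusted p = 0.623). With the week 2 controls 3 genes in all had opposite called differences, and Hccs and Utp6, a haem lyase and a ribosome assembly factor, turned sign (-0.26 and -0.24).

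Other lists with 0 called members were mitosis genes (27 tested, median -0.18), DNA replication (28, -0.13), interferon-induced genes (32, -0.32), the integrated stress response (28, -0.10), endoplasmic reticulum chaperones (28, -0.05), proteasome subunits (33, 0.03), urea cycle and amino acid breakdown (35, 0.26) and dendritic cell markers (18, 0.23). Of all genes 6.06% were called, so 0 calls in lists of this size say little. In limma 3335 genes of all 13898 had an unadjusted p below 0.05. Mitosis genes had a median diet difference of 2.46 at 1 week, 3.11 at 2 weeks and 2.50 at 6 weeks, so a high level at each time stood beside no called late minus early difference. Their median late minus early difference was 0.42 without CDAHFD replicate 1 of week 6 and -0.69 without replicate 2. That of DNA replication genes was 0.23 and -0.52, so the late CDAHFD arrays differed in both lists. Interferon-induced genes had a median diet difference of 0.90 at 1 week, 1.35 at 2 weeks and 0.69 at 6 weeks. Of these 32 genes, 27 had a negative late minus early difference, beside 7168 of all 13898 genes. The median late minus early difference of this list stayed negative under all 26 alternatives. Choline, phosphatidylcholine and methionine cycle genes had 1 of 32 called, Mat2a, which makes the methyl donor S-adenosylmethionine outside hepatocytes, lower, and a median of 0.02.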

How the data were processed

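Livers of 12 samples were read on one-colour Agilent arrays. Spot intensities were deposited as scanner output, background-subtracted and detrended by Agilent Feature Extraction (version 11.5.1.1 per the file headers, 10.7 per the submitters' processing notes), on an array designed for mm9. The log2 of these intensities was set relative to each array's 75th percentile, taken over the 20169 of 55681 probes that no array had at background, as each of the 12 arrays detected under 50%. No gene spot was saturated. Spots in dim blocks were left out. Of the probes, 28664 carried a symbol and 27017 none. Each gene was read by its probe of highest mean signal, and kept where both arrays of at least 1 group were well above background.

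One limma fit (version 3.58.1, R 4.3.3, trended and robust, Benjamini-Hochberg adjustment over all genes, 6 residual degrees of freedom) held all 12 arrays. Its recovery was tested on simulated data. Pairing was checked: deviations of same-numbered samples correlated between -0.15 and 0.22, and no label ties them, so the numbers do not pair samples. Alternatives covered normalization, background, filters, probes, weights, blocks, masking and leaving out each array. The normexp alternative used the median spot signal, as the mean signal was not used here.

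Members and the 43 gene lists were chosen with earlier results of these data known. Genes were named by rule: the 14 largest rises and 14 largest falls among genes called with and without control replicate 1 of week 1 and measured in all 4 groups, up to 8 opposite genes, up to 5 with dark controls, and of each list the first 3 members and up to 3 called in both fits. Any other gene named was chosen after its values were seen. Some genes are not reported here.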

Additional observations from a re-analysis of the deposited data

Results flagged for a closer look

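The test of the difference between the times was itself the reason to look again at 842 genes, whose diet difference differed between 6 weeks and 1 week, and at 60 genes among them with called diet differences of opposite sign. For the 8 of those named, the late minus early difference on the log2 scale was 2.11 for Fabp5, 2.69 for Plcxd1, 2.41 for Knstrn, 1.61 for Hccs, 1.57 for Utp6, -2.61 for Col5a3, -2.16 for Ttc6 and -1.61 for Eif2s3x. The week 1 controls moved with this pattern: for 7 of the 8 the change over time was called in control livers only. With the week 2 controls in their place 3 genes had opposite calls. What set the week 1 controls apart was not tested.

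Data outside the named genes also held a signal: of 8826 unnamed probes that were measured, 387 were called (4.38%), 215 higher and 172 lower at 6 weeks. They were not used in any gene count. Groups of 2 arrays are too small to test single arrays as outliers.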

How the results depend on the processing

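The alternatives were set beside 842 called genes (388 higher, 454 lower, 60 opposite). Counting only changes of at least 2-fold gave 509 (246 higher, 263 lower). Fitting weeks 1 and 6 alone, with fewer arrays, gave 494 (230 higher, 264 lower). Testing without a filter gave 559 (274 lower), and normexp 205 lower and 35 opposite; they moved the median of all genes to 0.114 and 0.19, and the cause was not tested. The week 2 controls, added after seeing the data, gave 90 (51 higher, 39 lower, 3 opposite). Leaving out 1 array gave 162 to 1071 called genes, 94 to 477 higher, 68 to 594 lower and 15 to 91 opposite. The count was 376 and 527 without control replicates 1 and 2 of week 1, 225 and 290 without CDAHFD replicates 1 and 2 of week 1, 507 and 501 without the CDAHFD replicates of week 2, and 162 and 314 without control replicates 1 and 2 of week 6, so it depended on single arrays. With a replicate block 757 genes were called (360 higher, 397 lower, 65 opposite), and 85 of the 91 named called genes were called again; the samples share only a number. Slide as a random block gave 842, but each group lay on 1 slide, so this alternative cannot test for a slide effect. Of these 91 genes, 41 were called again without each array in turn, among them Trem2, Gpnmb, Ntrk2, Cib3, Slco1a1, Dct and Themis. Signs turned for Cd163 with normexp (0.18), for Tlr8 without a filter (-0.10), and with the week 2 controls for Gla (-0.023), Hccs (-0.26), Utp6 (-0.24), Mir17hg (0.45) and Pisd-ps3 (0.21). Of the 43 list medians, 24 kept their sign under all 26 alternatives. Other tested probes existed for 215 of the 842 genes. Another probe was called the same way in 44 genes and the opposite way in 1. Other probes of Cdkn1a (2.00), Ctsd (1.32), Loxl1 (0.62), Loxl2 (-0.09 and 0.17), Adrb3 (-1.83) and Ttc6 (-1.54) were not called.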

Other observations

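Inflammatory and secreted factors outside the groups above gave mixed calls. Il1b, the cytokine interleukin-1 beta, read -3.85 and -3.77 on CDAHFD arrays at 6 weeks and -3.33 and -3.95 at 1 week, against -3.80 and -3.77 on control arrays at 6 weeks and -5.16 and -5.39 at 1 week. The late groups overlapped and the early ones did not: the diet difference was 1.02-fold lower in CDAHFD livers at 6 weeks and 3.10-fold higher at 1 week (late minus early -1.66 ± 0.31, limma adjusted p = 0.017). This call was also made with the week 2 controls. Chemokines and cytokines as a list had 3 of 26 called higher (Ccl9, Cxcl14 and Cx3cl1), 1 lower and a median of 0.08, and neutrophil markers 1 of 15 higher, Lcn2, and 1 lower, Il1b. Acute phase proteins had 3 of 23 called higher, Lcn2, Orm2 and Orm3, and a median of 0.31. Without control replicate 1 of week 1, and with the week 2 controls, 0 acute phase proteins were called by limma, and the median with the week 2 controls was 0.05.

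Other genes were called with the week 1 and with the week 2 controls and were picked after their values were seen. Capg, an actin-capping protein abundant in macrophages, read 1.61 and 1.51 on CDAHFD arrays at 6 weeks and 0.52 and 0.14 at 1 week, against -2.54 and -2.72 on control arrays at 6 weeks and -1.63 and -1.85 at 1 week (2.12 ± 0.21, limma adjusted p = 0.0027). Cd209f, a lectin of macrophages, read -8.61 and -9.21 on CDAHFD arrays at 6 weeks, which was not well above background, and -5.07 and -4.95 at 1 week. Control livers were at least 1.80-fold above CDAHFD livers at 6 weeks. Mup6, a major urinary protein, read -3.89 and -3.59 on CDAHFD arrays at 6 weeks and -0.98 and -0.88 at 1 week, against 0.19 and -0.03 on control arrays at 6 weeks and 1.50 and 0.71 at 1 week (-1.79 ± 0.33, limma adjusted p = 0.017). The Mup genes are near-identical copies, so its probe may read several of them. A probe of Mup20, another major urinary protein, that was not used in the gene counts went the other way (1.47, limma adjusted p = 0.0072).

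Glucose genes had 2 of 31 called higher, Pkm, a pyruvate kinase, and G6pdx, the entry enzyme of the pentose phosphate pathway, with a median of 0.27 that was 0.04 with the week 2 controls. Oxidative phosphorylation subunits had 1 of 42 called higher, Ndufs8, and a median of 0.33, or 0.07 with the week 2 controls. NRF2 antioxidant genes had 2 of 31 called higher, G6pdx and Ftl1, and 2 lower, Gclc and Cbr3, with a median of 0.07, or -0.19 with the week 2 controls. The call for Gclc was lost in most fits without 1 array. Over all genes 2.79% were called higher and 3.27% lower. With the week 2 controls 0 glucose, oxidative phosphorylation or NRF2 genes were called, where 90 genes were called in all.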
